A study of Mus musculus with 6 samples.

Results

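The Rhox genes form a cluster of homeobox genes on the mouse X chromosome. A homeobox encodes a DNA-binding domain, and the Rhox proteins are transcription factors of the testis, ovary, placenta and germ line. The cluster is grouped into alpha (Rhox1 to Rhox4), beta (Rhox5 to Rhox9) and gamma (Rhox10 to Rhox13) subclusters, and the alpha genes Rhox2, Rhox3 and Rhox4 exist in many tandem copies. In somatic cells the cluster is known to be kept silent largely through DNA methylation, and mouse embryonic stem (ES) cells are known for transcribing Rhox5, formerly called Pem. The genes described here are Rhox1, Rhox4b, Rhox5, Rhox6, Rhox9, Rhox10 and Rhox13, which are 7 of the 31 Rhox symbols that have a row among the 24054 gene rows of the count tables. They were selected on values measured in these same libraries, in the comparison of ko with wild type, so their levels and differences in that comparison are given as a description with no test of their own.

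The 6 libraries hold RNA-seq of mouse ES cells. 3 libraries came from cells labelled as Morc3 knock out (ko), each a separate clone (KO27-1, KO27-2 and KO27-3, here clone 1, clone 2 and clone 3) that the study made with Cas9 from its wild-type line. 3 libraries came from that wild-type line, labelled WT26 p42, p43 and p56, where the meaning of the letter p was not given. All cells were grown without feeder cells on gelatin in medium with serum and LIF, a factor that keeps ES cells undifferentiated. Cloning and the loss of Morc3 cannot be told apart by group, and p-values measure the spread between 3 clones and 3 cultures of the same line.

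Sense counts, the read pairs assigned to genes in the direction of the gene, came to 10740618 to 14123131 per library. Morc3, which encodes an ATPase of the MORC family, had 77.8, 138 and 135 CPM (sense counts scaled to a common library size, with TMM factors for library composition) in ko clones 1, 2 and 3. The wild-type cultures p42, p43 and p56 had 277, 272 and 302 CPM. It was lower in ko by 1.28 on the log2 scale (SE 0.16, edgeR adjusted p = 8.4e-04), and its groups did not overlap. Across 12222 genes tested, 156 had an adjusted p under 0.01 and are termed called, which is 1.28% of the genes tested. The wild-type culture p56 stood apart in its effect on this count. Without p56 there were 385 called genes, whereas leaving out any other library gave 72 to 117.

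The Rhox cluster covers chrX:37213804-38129966 in the GRCm38 assembly, a stretch of 916.2 kb. Rhox1 lies at its start (chrX:37213804-37222258, minus strand) and Rhox4b among the alpha copies (chrX:37432494-37437279, plus strand). Rhox5 (chrX:37804842-37808876, plus strand), Rhox6 (chrX:37826910-37829857, plus strand) and Rhox9 (chrX:37899097-37901770, minus strand) lie within 96.9 kb of each other in the beta subcluster. Rhox5 and Rhox6 are separated by 18.0 kb and Rhox6 and Rhox9 by 69.2 kb. A gap of 164.7 kb separates Rhox9 from Rhox10 (chrX:38066475-38071691, plus strand), and Rhox13 (chrX:38121219-38129967, plus strand) closes the cluster. The span of the cluster comes from the RefSeq gene table, and those of the genes from the GENCODE vM21 models. The spans of single genes differ between these sources. GENCODE ends Rhox13 1 base later, and RefSeq starts Rhox5 at 37754608, well before the GENCODE start of 37804842.

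Reads that fit several copies equally well are not counted for any of them, so the shared sequence decides which Rhox genes can be counted. Within coding sequence, Rhox6 and Rhox9 were 90.6% identical (617 of 681 aligned bases), the closest pair among the members apart from the Rhox4 copies. The first set shows a stretch, positions 167 to 256 of both coding sequences, in which all 90 bases are the same. A read pair with both reads inside it cannot be assigned to either gene, whereas a pair can be assigned where 1 of its reads reaches sequence particular to that gene.

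Rhox6: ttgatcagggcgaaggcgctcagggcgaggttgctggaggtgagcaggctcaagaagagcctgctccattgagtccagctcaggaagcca
Rhox9: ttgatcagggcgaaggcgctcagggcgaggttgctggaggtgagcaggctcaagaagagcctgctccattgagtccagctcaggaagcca

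The second set shows part of the homeobox of Rhox5 (coding positions 434 to 523) beside the matching part of Rhox6 (539 to 628), with differing bases in capitals. It is the stretch of 90 bases without gaps in which the most abundant member, Rhox5, matches Rhox6 best. Even there only 58 of the 90 bases are identical, and no 50-base word of Rhox5 occurs in another gene. Over all aligned coding bases, Rhox5 was 62.5% identical to Rhox6 and 66.85% to Rhox9.

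Rhox5: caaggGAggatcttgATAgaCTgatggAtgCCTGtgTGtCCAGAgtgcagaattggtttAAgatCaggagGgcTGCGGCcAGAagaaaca
Rhox6: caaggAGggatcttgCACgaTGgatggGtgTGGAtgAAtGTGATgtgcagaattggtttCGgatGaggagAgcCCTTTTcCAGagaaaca

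The third set shows the first 90 coding bases of Rhox4b and of a pair of its copies, with bases that differ from Rhox4b in capitals. Rhox4a and Rhox4f each differ from Rhox4b at 2 of the 90 positions, as 88 are identical in either.

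Rhox4b: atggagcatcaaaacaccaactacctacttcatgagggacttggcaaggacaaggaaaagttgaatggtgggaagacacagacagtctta
Rhox4a: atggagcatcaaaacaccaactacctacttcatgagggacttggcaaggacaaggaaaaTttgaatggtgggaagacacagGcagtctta
Rhox4f: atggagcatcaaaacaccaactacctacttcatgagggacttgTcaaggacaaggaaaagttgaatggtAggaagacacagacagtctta

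Of the 7 members, 6 had at least 1 sense count in some library. Rhox4b had 0 counts in all 6 libraries. Only 6.29% of the 50-base words of Rhox4b (50 bases is the length of a read) were absent from every other annotated gene, and its coding sequence was 98.7% to 99.67% identical to those of the other 6 Rhox4 genes compared. The 0 counts of Rhox4b therefore limit reads from its few particular stretches, not expression of the Rhox4 group. Over all 6 libraries, a count of 0 allows a level of up to 0.0404 CPM (3 counts of the total, counting error only).

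The 24 Rhox rows that are not members had 0 counts in every library on either strand. Together with Rhox4b this makes 25 rows without sense counts. In 22 of these, under 60% of the 50-base words were particular to the gene, with 55.4% for Rhox2d as the highest and 0% for Rhox2e as the lowest. The other 3 were Rhox8 (95.1%), Rhox11 (100%) and Rhox12 (100%), whose annotated sequence is nearly or fully their own among transcripts and which still had 0 counts. Among the 6 members with counts, the share of particular words was 100% for Rhox1, Rhox5, Rhox10 and Rhox13, 93.7% for Rhox9 and 83.5% for Rhox6. The words shared by Rhox6 and Rhox9 occur in no further gene, so pairs that lie wholly in their common stretches are missing from the counts of both. All these shares were computed over annotated transcripts and not over the whole genome to which the reads were aligned, so sequence outside genes was not considered.

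**Figure D1:**
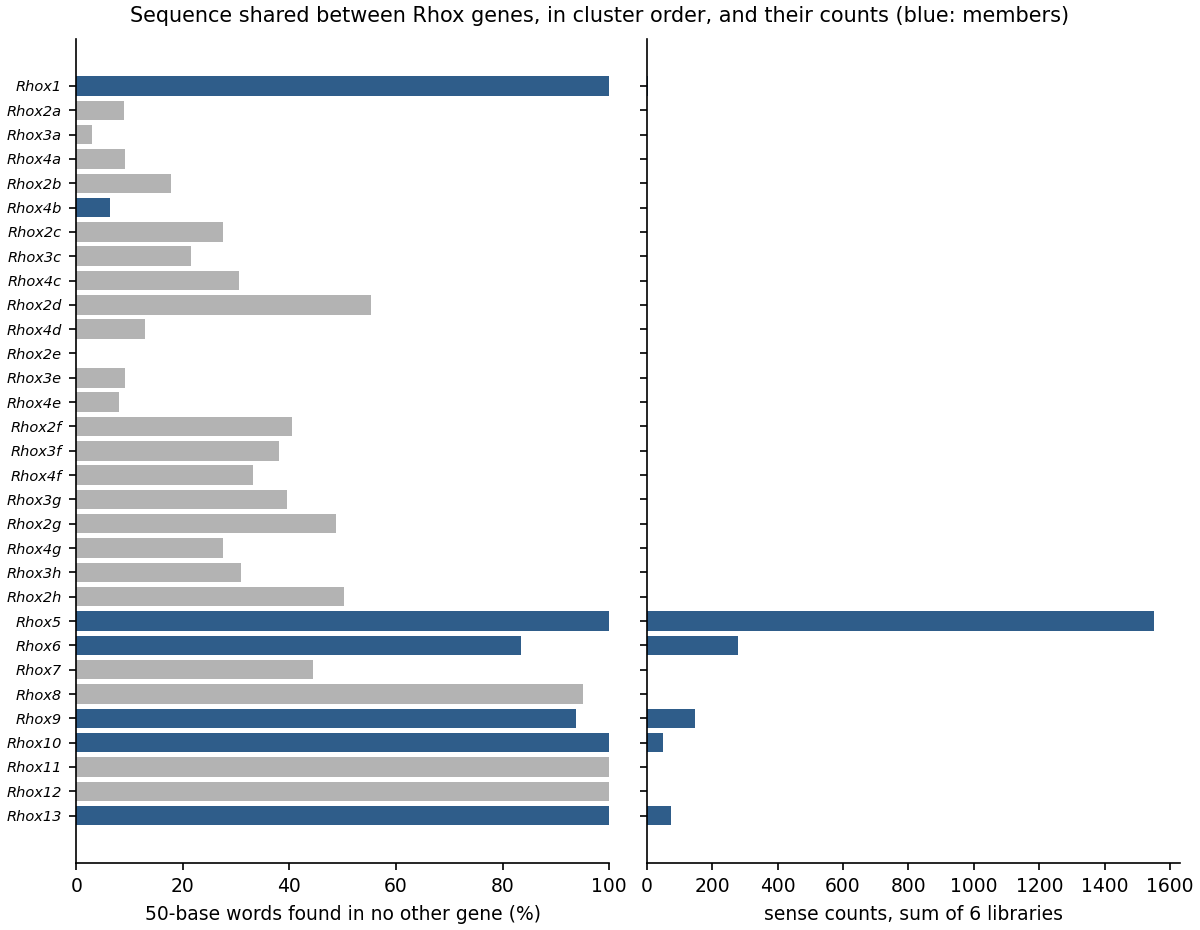
Left, share of 50-base words of each Rhox gene (percent) found in no other annotated gene, and right, sense counts summed over the 6 libraries, with genes in cluster order from top to bottom and the members in blue. Counts were found at Rhox1, where the 3 counts are too few to see, and from Rhox5 onwards at Rhox5, Rhox6, Rhox9, Rhox10 and Rhox13, while Rhox8, Rhox11 and Rhox12 had 0 counts although at least 95.1% of their words were particular to them.

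Rhox5, the Pem homeobox gene of ES cells, extraembryonic tissue and Sertoli cells, held most of the Rhox counts. Its sense counts were 90, 83 and 64 in ko clones 1, 2 and 3, and 540, 414 and 361 in the cultures p42, p43 and p56. These correspond to 8.32, 7.33 and 5.81 CPM in ko and 39.1, 29.0 and 27.9 CPM in wild type. All 3 ko clones lay far below all 3 wild-type cultures, with means of 7.15 ± 1.26 CPM and 31.99 ± 6.19 CPM (SD, n = 3 each). The fitted log2 fold change was -2.16 (SE 0.17), so that ko held 22.4% of the wild-type level, a 4.47-fold lower value. Of the genes tested, 8 had a lower fold change than Rhox5.

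Rhox6, known as a homeobox gene of the placenta and germ cells (Psx1), had 15, 19 and 13 sense counts in ko clones 1, 2 and 3. The cultures p42, p43 and p56 had 91, 64 and 78 sense counts. Its CPM were 1.39, 1.68 and 1.18 in ko against 6.59, 4.48 and 6.02 in wild type. The highest ko clone, clone 2, stayed below the lowest wild-type culture, p43. The means were 1.41 ± 0.25 and 5.70 ± 1.09 CPM, and the fitted log2 fold change was -1.998 (SE 0.24), which left 25.0% of the wild-type level in ko.

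Rhox9 (Psx2), the near copy of Rhox6 on the opposite strand, had 12, 9 and 7 sense counts in the ko clones and 35, 38 and 47 in p42, p43 and p56. In CPM these were 1.11, 0.79 and 0.64 in ko and 2.54, 2.66 and 3.63 in wild type. The groups again did not overlap. The means were 0.846 ± 0.241 and 2.94 ± 0.60 CPM, and the fitted log2 fold change was -1.78 (SE 0.30), or 29.1% of wild type. Rhox9 passed the filter on low counts only through the wild-type libraries, and its 148 counts over all libraries make it the least counted of the 3 lower members.

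Rhox13, a gamma gene known from male germ cells, went the other way. It had 15, 22 and 13 sense counts in ko clones 1, 2 and 3, and 5, 11 and 7 in p42, p43 and p56. Its CPM were 1.39, 1.94 and 1.18 in ko and 0.36, 0.77 and 0.54 in wild type, so that every ko clone lay above every wild-type culture. The means were 1.503 ± 0.394 and 0.558 ± 0.205 CPM. The fitted log2 fold change was 1.41 (SE 0.38), a 2.66-fold higher value. It rests on 73 counts in all and passed the filter on low counts only through the ko libraries.

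Rhox10, a gamma gene known from spermatogonia, lies between Rhox9 and Rhox13. Its sense counts were 7, 6 and 7 in the ko clones and 10, 11 and 7 in p42, p43 and p56. This is 0.647, 0.530 and 0.635 CPM in ko and 0.724, 0.770 and 0.541 CPM in wild type, and the groups overlap because p56 lies among the ko clones. The means of 0.604 ± 0.065 and 0.678 ± 0.122 CPM differed by less than the wild-type SD, and the gene did not pass the filter, so it has no fitted value. Rhox1, an alpha gene of the testis, had 3 counts in all, 2 in p43 and 1 in p56. In ko it had 0 counts, which over the 3 clones allows up to 0.0896 CPM, above its wild-type mean of 0.0724 CPM. A difference in Rhox1 was therefore not detectable at this depth.

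**Figure D2:**
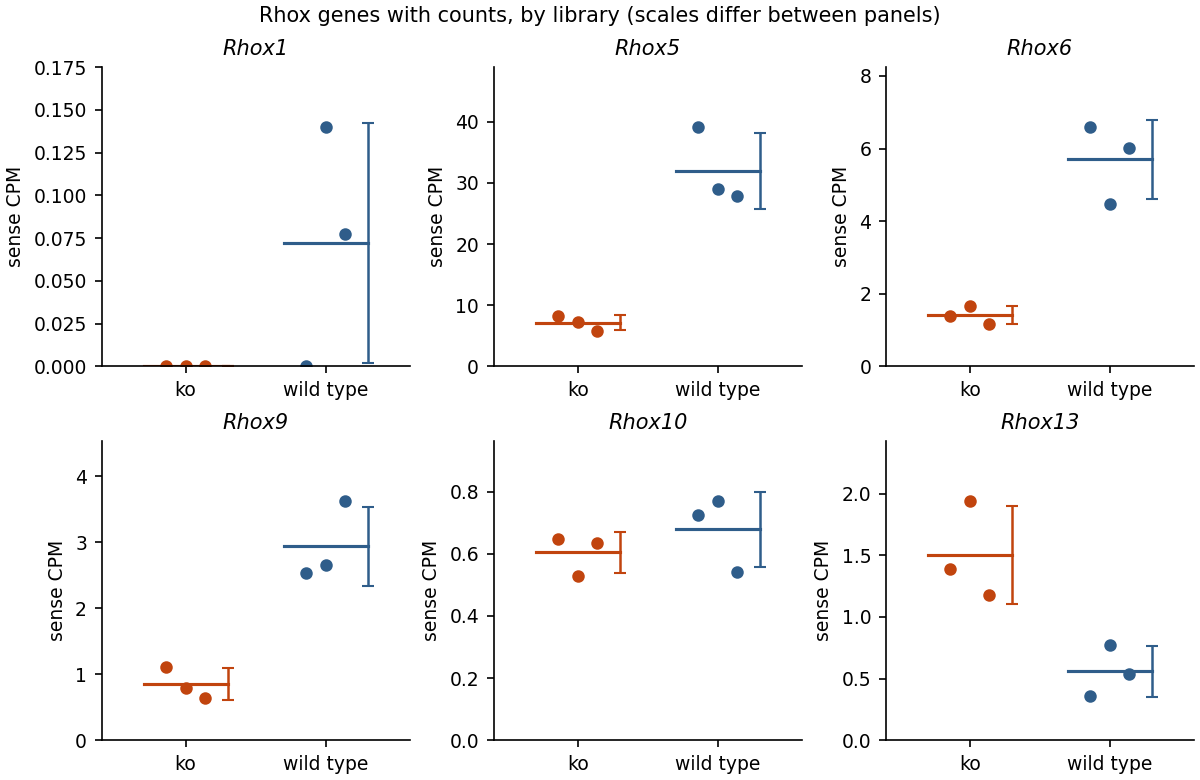
Sense CPM of the 6 members with counts in each library, with points for the 3 ko clones and the 3 wild-type cultures (in the order clone 1 to 3 and p42, p43, p56), lines for the group means and bars for the SD (the vertical scales differ). The ko points lie below all wild-type points for Rhox5, Rhox6 and Rhox9, above them for Rhox13, and among them for Rhox10.

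In all, 4 of the 7 members passed the filter and 3 did not (Rhox1, Rhox4b and Rhox10). In the fit over all genes, which used the counts that chose them, Rhox5, Rhox6 and Rhox9 were called lower in ko, where 0.417% of all genes tested were, and 0 members were called higher, where 0.859% of all genes were. The same 3 members had all ko clones below all wild-type cultures, as did 10.2% of the genes tested, and Rhox13 had all ko clones above, as did 9.67%. Since the members were chosen on this comparison, and Rhox9 and Rhox13 passed the filter only through the group in which they are high, these calls are no test of the members and nothing is read from them. The call of Rhox9 was lost with limma-voom and when clone 1, clone 2, clone 3, p42 or p43 was left out. Without p56 the fitted log2 fold changes were -2.25 for Rhox5, -1.95 for Rhox6, -1.61 for Rhox9 and 1.39 for Rhox13. In a culture, a lower level can come from fewer cells that transcribe the gene or from less RNA per cell, which cannot be told apart in bulk RNA.

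Compared per length, as CPM per kb of exon, the wild-type order was Rhox5 (42.4 ± 8.21), Rhox6 (5.64 ± 1.08), Rhox9 (1.18 ± 0.24), Rhox10 (0.889 ± 0.159), Rhox13 (0.637 ± 0.234) and Rhox1 (0.0820 ± 0.0794). Rhox5 stood well above Rhox6, and Rhox6 above the rest, while the neighbours Rhox9 and Rhox10, and Rhox10 and Rhox13, lay within about their spread of each other. In ko the order was Rhox5 (9.48 ± 1.68), Rhox13 (1.72 ± 0.45), Rhox6 (1.40 ± 0.25), Rhox10 (0.792 ± 0.085) and Rhox9 (0.340 ± 0.097). Rhox13 and Rhox6 did not differ beyond their spread in ko. Lengths are those of the GENCODE models, and the annotation used for counting is not given. The place of Rhox9 depends on the length used, because its annotated exons come to 2.488 kb but its coding sequence to 0.681 kb. Per kb of coding sequence, a choice made after the data were seen, Rhox9 had 4.32 ± 0.88 CPM per kb in wild type and 1.24 ± 0.35 in ko, and then stood above Rhox10 in both (1.15 ± 0.21 and 1.03 ± 0.11), though in ko by less than the SD of Rhox9.

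The Rhox counts together came to 49.3, 37.8 and 38.7 CPM in p42, p43 and p56, and to 12.8, 12.3 and 9.44 CPM in ko clones 1, 2 and 3. Within that sum, Rhox5 took 76.0% ± 3.67 in wild type and 62.0% ± 2.55 in ko. Rhox6 took 13.6% ± 1.87 and 12.3% ± 1.45, and Rhox9 took 7.19% ± 2.13 and 7.28% ± 1.18, shares that lay within their spread in wild type and ko. Rhox13 took 1.39% ± 0.65 in wild type and 13.0% ± 2.56 in ko. The share of Rhox10 was 1.63% ± 0.35 in wild type and 5.36% ± 1.24 in ko, although its CPM differed by less than the spread, since the sum around it was smaller. The ratio of Rhox5 to Rhox6 counts was 5.68 ± 0.95 in wild type and 5.10 ± 0.83 in ko, and that of Rhox6 to Rhox9 was 1.98 ± 0.54 and 1.74 ± 0.44. Both ratios lay within their spread in ko and wild type.

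**Figure D3:**
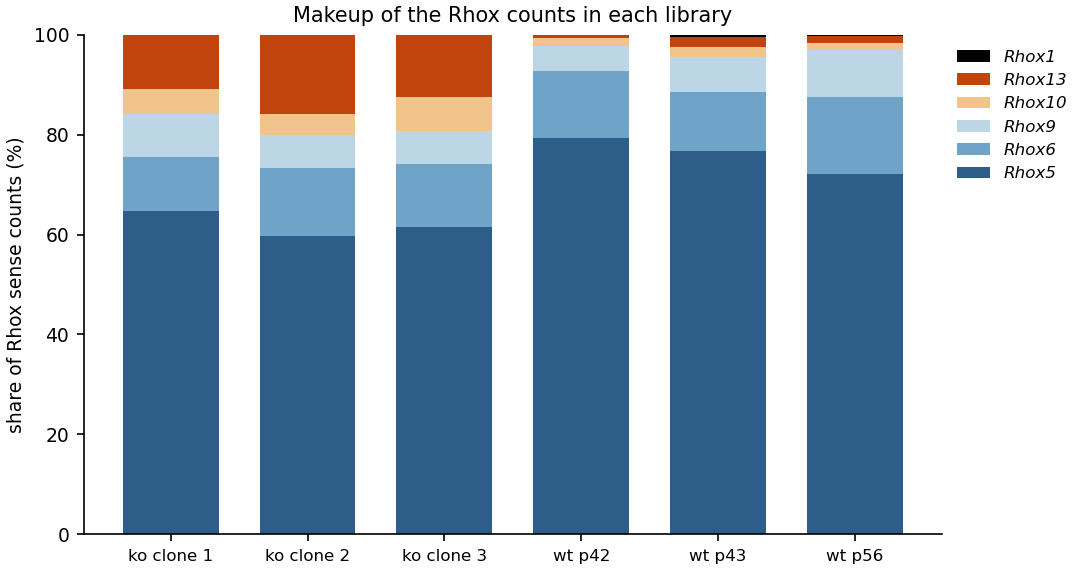
Share of each Rhox gene (percent) in the Rhox sense counts of each library, as stacked bars for the 3 ko clones and the 3 wild-type cultures. Rhox5 is the largest part in every library, from 59.7% in clone 2 to 79.3% in p42, and Rhox13 takes 10.8% to 15.8% in the ko clones against 0.734% to 2.04% in wild type.

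Reads in the direction opposite to the members were almost missing. There was 1 such count in ko, at Rhox13 in clone 1, and 1 in wild type, at Rhox9 in p42. The opposite-strand share of the members' counts was 0.238% ± 0.412 in ko and 0.0489% ± 0.0847 in wild type (SD, n = 3 each), too few reads for a test. Counts that ignore strand therefore gave the same member values apart from these 2 reads.

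Genes around the cluster, chosen by position only, were not called. Among 25 other gene rows inside the cluster or within 500 kb of either end, 15 were tested and 0 were called by edgeR, DESeq2 or limma-voom. An unadjusted p under 0.05 was reached by 1 of the 15 (6.67%) in edgeR, against 14.3% of all genes tested. This was Mcts1 (log2 fold change 0.29, SE 0.09, edgeR adjusted p = 0.126), with every ko clone above every wild-type culture. Slc25a5, Rpl39 and Ndufa1 had the same order of groups, as did 9.67% of all genes tested. The log2 fold changes of the 15 ran from -0.10 to 0.38 with a median of 0.09, beside -0.00010 for all genes tested. Before the cluster, Rnf113a1, an E3 ubiquitin ligase gene of the spliceosome, had 6.70 ± 0.64 CPM in ko and 5.13 ± 1.42 in wild type (edgeR adjusted p = 0.444). Ndufa1, a subunit of respiratory complex I, had 41.5 ± 1.72 and 39.1 ± 0.44 CPM (adjusted p = 0.696). After the cluster, Zbtb33, which encodes the methyl-DNA binding protein Kaiso, had 25.0 ± 1.13 and 25.5 ± 0.70 CPM (adjusted p = 0.926). Lamp2, a lysosomal membrane protein gene, had 40.5 ± 5.52 and 42.6 ± 2.83 CPM (adjusted p = 0.823). The 2 other genes inside the cluster had 0 counts. On the whole of chromosome X, without the Rhox genes but with the flanking genes, 414 genes were tested. Of these, 4 were called higher and 5 lower in ko, and their median log2 fold change was -0.01. The share called was 2.17%, against 1.28% of all genes tested, and the share called lower was 1.21%, against 0.417%.

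**Figure D4:**
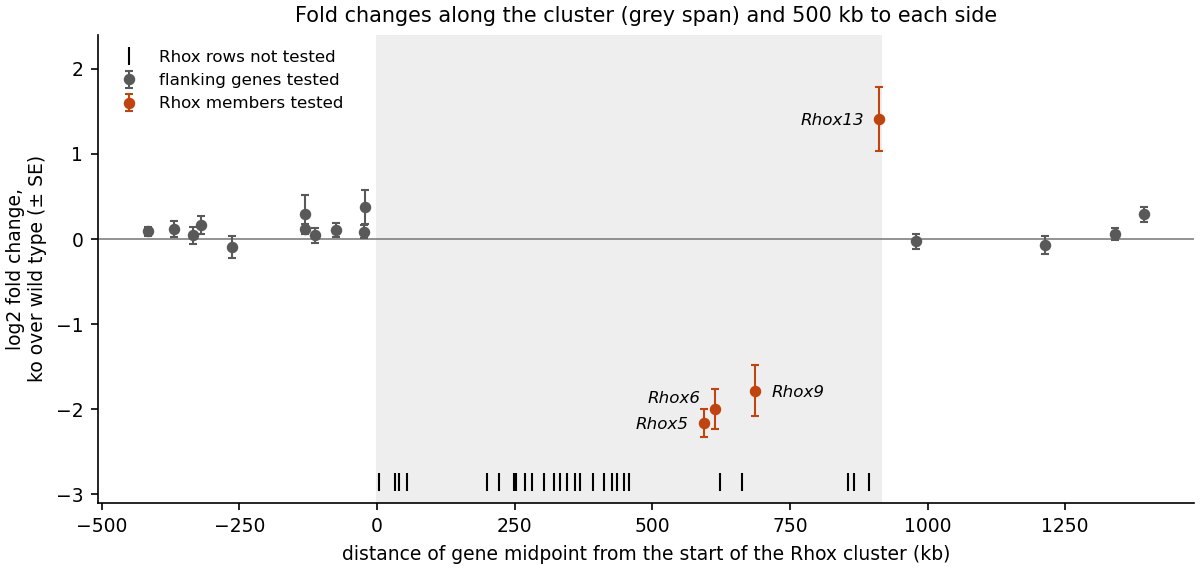
Log2 fold change of ko over wild type (bars, SE) for tested genes against the distance of the gene midpoint from the start of the Rhox cluster (kb), with the cluster shaded and Rhox genes that were not tested as ticks. Rhox5, Rhox6 and Rhox9 lie at -2.16, -1.998 and -1.78 and Rhox13 at 1.41, while the 15 flanking genes lie between -0.10 and 0.38.

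Genes of chromatin regulation, some of them known to act on the Rhox cluster, were examined as a list of 22. They were DNA methyltransferases and their partners, H3K9 methyltransferases, linker histones, the demethylase Kdm6a, the Tet dioxygenases and the E2f6 and PRC1.6 group. All 22 were tested and 0 were called by edgeR, DESeq2 or limma-voom. An unadjusted p under 0.05 in edgeR was reached by 2 (9.09%), against 14.3% of all genes tested. The median log2 fold change was 0.03, and the range was -0.15 to 0.30. The maintenance methyltransferase Dnmt1 had 432 ± 9.76 CPM in ko and 427 ± 2.73 in wild type (edgeR adjusted p = 0.918). Hells, the remodeller Lsh, had 729 ± 67.0 and 660 ± 65.3 CPM (adjusted p = 0.492). The H3K9 methyltransferase partner Trim28 had 2935 ± 143 and 2707 ± 165 CPM (adjusted p = 0.435). The linker histone genes Hist1h1c and Hist1h1d had 749 ± 97.4 and 1157 ± 92.3 CPM in ko, and 730 ± 65.8 and 1154 ± 24.1 in wild type (adjusted p = 0.904 and 0.989). Another linker histone gene, Hist1h1e, had 444 ± 53.6 CPM in ko and 364 ± 8.25 in wild type (log2 fold change 0.29, SE 0.08, adjusted p = 0.0883, the lowest of the list), with every ko clone above every wild-type culture. Kdm6a, an X-linked demethylase known to act on Rhox6 and Rhox9, had 84.6 ± 3.85 and 80.4 ± 2.72 CPM (adjusted p = 0.7001). Besides Hist1h1e, the gene with an unadjusted p under 0.05 was Dnmt3b, a DNA methyltransferase gene. It had 257.4 ± 13.1 CPM in ko and 225.5 ± 5.24 in wild type (log2 fold change 0.19, SE 0.06, adjusted p = 0.157). Every ko clone lay above every wild-type culture for Dnmt3b, as for Hist1h1e, an order that 9.67% of all genes tested had. Dnmt3a went the other way (log2 fold change -0.11, edgeR adjusted p = 0.864) with overlapping groups. Dnmt1 and Kdm6a were picked from the list for their known roles, Hist1h1e, Dnmt3b and Dnmt3a after their values were seen, and the others by abundance.

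The cells carried ES cell transcripts in both groups. All 16 ES cell markers were tested, and 0 were called by edgeR or limma-voom and 1 by DESeq2. An unadjusted p under 0.05 in edgeR was reached by 4 (25%), against 14.3% of all genes tested, a share that is no test of this chosen list. These 4 were Dppa5a, Zfp42, Klf2 and Sall4, each higher in every ko clone than in every wild-type culture, as were 9.67% of all genes tested. The summed level of the 16 was 7835 to 7954 CPM in ko and 7326 to 7382 in wild type, with a median log2 fold change of 0.05. Pou5f1, the core pluripotency factor Oct4, had 1165 ± 46.1 CPM in ko and 1135 ± 33.3 in wild type (edgeR adjusted p = 0.832). Zfp42, the naive-state marker Rex1, had 1463 ± 56.9 and 1316 ± 36.4 CPM (adjusted p = 0.208). Dppa5a had 1369 ± 21.3 and 1017 ± 146 CPM (adjusted p = 0.0231), and was the marker that DESeq2 called. It was also called without p56 (log2 fold change 0.32, adjusted p = 9.6e-04) and with no filter on low counts (adjusted p = 0.00142). Tdgf1, a Nodal co-receptor gene, had 716 ± 14.5 and 764 ± 36.2 CPM (adjusted p = 0.517).

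Rhox5, Rhox6 and Rhox9 are also transcribed in trophoblast and extraembryonic endoderm, so the markers of these lineages were read beside them. Of 15 trophoblast genes, 7 were tested, and 0 were called by edgeR, DESeq2 or limma-voom. An unadjusted p under 0.05 in edgeR was reached by 0 of the 7, against 14.3% of all genes tested. The summed level of the list was 118 to 133 CPM in ko and 125 to 145 CPM in wild type, and the median log2 fold change was -0.08. Tfap2c, a trophoblast and germ cell transcription factor, had 51.0 ± 6.37 CPM in ko and 61.2 ± 10.5 in wild type (edgeR adjusted p = 0.364), and was called lower without p56 (log2 fold change -0.40, adjusted p = 0.00445). The keratin gene Krt8 had 11.04 ± 0.84 and 13.4 ± 3.02 CPM (adjusted p = 0.480). Peg10 (adjusted p = 0.899) and Tead4 (adjusted p = 0.998) had log2 fold changes of 0.06 and -0.0015.

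Of 17 extraembryonic endoderm genes, 7 were tested, 3 (42.9%) had an unadjusted p under 0.05 in edgeR, against 14.3% of all genes tested, and 2 were lower in ko by edgeR, DESeq2 and limma-voom. These were the basement membrane collagen genes Col4a1, at 22.0 ± 0.56 CPM in ko and 41.1 ± 0.97 in wild type (edgeR adjusted p = 6.0e-05 for a log2 fold change of -0.90, SE 0.08), and Col4a2, at 5.16 ± 0.12 and 11.8 ± 0.16 CPM (-1.19, SE 0.13, adjusted p = 2.8e-04). The abundant matrix genes Sparc (133 ± 16.3 and 154 ± 15.5 CPM, adjusted p = 0.346), Lama1 (266 ± 17.0 and 262 ± 15.3, adjusted p = 0.922) and Lamb1 (108 ± 4.27 and 107 ± 23.2, adjusted p = 0.986) were not called. The transcription factor gene Gata4 had 0.636 ± 0.252 CPM in ko and 1.11 ± 0.30 in wild type (log2 fold change -0.81, SE 0.40, adjusted p = 0.395). The other defining transcription factors named here were lower still and not tested: Gata6 had 0.121 CPM in ko and 0.317 in wild type, Sox17 had 0.119 and 0.0958, and Foxa2 had 0.0308 and 0.0233. The median log2 fold change of the 7 was -0.77, and the summed level of the list was 532 to 543 CPM in ko and 551 to 597 in wild type. The list was chosen with earlier results of these data known, so its share of genes with a low unadjusted p is no test of the list. The part of such cells in the Rhox levels was not tested.

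Since Rhox genes are known from the germ line, germ cell genes were listed too. Of 20 autosomal germ cell genes, 16 were tested and 8 (50%) had an unadjusted p under 0.05 in edgeR, against 14.3% of all genes tested. Of these 8, Piwil2, Ddx4, Mov10l1, Sycp1 and Sycp3 were lower in every ko clone than in every wild-type culture. That order was found in 10.2% of all genes tested. Prdm1, Mael and Stk31 had higher fitted levels in ko. The list was chosen with earlier results of these data known, so the share of its genes with a low unadjusted p is no test of the list. DESeq2 called 3 of the 16, limma-voom 0, and edgeR 1, which was lower in ko: Piwil2, a Piwi protein gene, with 20.8 ± 0.75 CPM in ko and 42.8 ± 13.6 in wild type (edgeR adjusted p = 0.00805 for a log2 fold change of -1.04, SE 0.18). That call was lost without clone 1, clone 2 or clone 3 and with limma-voom (adjusted p 0.0161 to 0.0766). Ddx4, the Vasa helicase gene, had 20.1 ± 0.84 and 33.0 ± 7.45 CPM (adjusted p = 0.0182), and was called without p42 (adjusted p = 0.00983), without p56 (adjusted p = 0.00123), with no filter on low counts (adjusted p = 0.00101) and by DESeq2. Mov10l1 had 4.18 ± 0.43 CPM in ko and 8.355 ± 2.33 in wild type (log2 fold change -0.99, SE 0.21, edgeR adjusted p = 0.0265). Prdm14 (adjusted p = 0.965) and Stk31 (adjusted p = 0.315) had log2 fold changes of -0.02 and 0.48, and Stk31 was called higher without p56 (0.82, adjusted p = 1.7e-04). The median of the 16 was -0.23, and the summed level of the list was 174 to 182 CPM in ko and 188 to 255 in wild type.

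Of 23 X-linked germ cell genes, 4 were tested and 0 were called by edgeR, DESeq2 or limma-voom. An unadjusted p under 0.05 in edgeR was reached by 2 (50%), against 14.3% of all genes tested, a share that is no test of this chosen list. The median log2 fold change of the 4 was -0.95. Tex11, a meiosis gene, had 9.07 ± 1.83 CPM in ko and 24.5 ± 13.5 in wild type (log2 fold change -1.43, SE 0.32, edgeR adjusted p = 0.0355). It was called without p42 (-1.68, adjusted p = 0.00581) and without p56 (-0.89, adjusted p = 4.2e-04), and with no filter on low counts (adjusted p = 6.7e-04). Usp26 had 0.812 ± 0.359 and 1.99 ± 1.04 CPM (adjusted p = 0.211), Taf7l had 0.694 ± 0.144 and 1.08 ± 0.42 (adjusted p = 0.544), and Mageb16 had 28.8 ± 1.01 and 31.95 ± 1.07 (adjusted p = 0.456).

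Fibroblast markers were listed because such cells can feed or arise in cultures. Vim had 24.2 to 50.1 CPM, and the other markers were lower, at up to 9.11 CPM (Thy1 in p56). Of 10 genes, 2 had 0 counts in all libraries (Dcn and Postn) and 3 were tested. Thy1, a surface glycoprotein gene, was lower in ko (4.80 ± 0.25 against 8.71 ± 0.47 CPM, log2 fold change -0.86, SE 0.14, edgeR adjusted p = 0.0064), a call lost without clone 1, clone 2, clone 3, p42 or p43 (adjusted p 0.0181 to 0.0584). Pdgfrb (2.24 ± 0.42 and 3.01 ± 0.27 CPM, adjusted p = 0.429) and Vim (42.5 ± 11.2 and 35.5 ± 10.0 CPM, adjusted p = 0.666) were not called. The summed level was 38.4 to 58.4 CPM in ko and 36.9 to 57.0 in wild type, and the median log2 fold change of the 3 was -0.43.

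**Figure D5:**
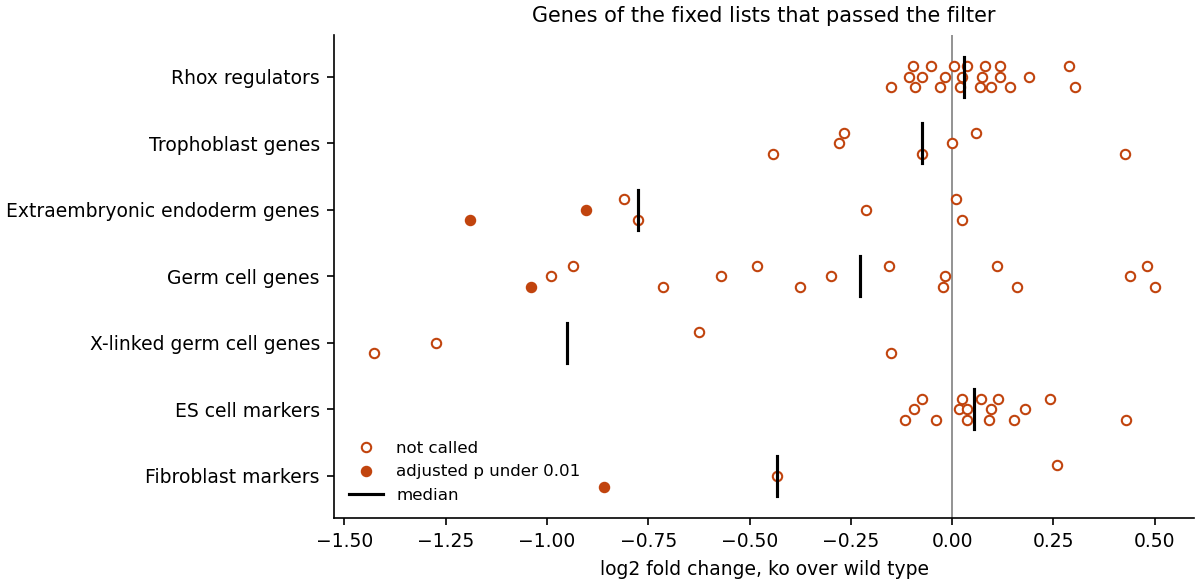
Log2 fold changes of ko over wild type for the listed genes that passed the filter on low counts, as points by list (filled where the edgeR adjusted p was under 0.01), with the list median as a black line. The medians of the chromatin regulation genes (labelled Rhox regulators) and the ES cell markers lie at 0.03 and 0.05, those of the X-linked germ cell and extraembryonic endoderm genes at -0.95 and -0.77, and the filled points are Col4a1, Col4a2, Piwil2 and Thy1.

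The genes whose pattern was most like the members' mean were sought by Pearson's r, over the 6 libraries, with the mean log2 CPM of the 4 members that passed the filter. The highest values were found for Abcc4 (r = 0.992), Gm973 (0.992), 1700019A02Rik (0.991), Ptgr1 (0.989) and Thap2 (0.989), none of which is on chromosome X. The mean holds 3 members that were lower in ko and Rhox13, which was higher, and all 5 genes were lower in every ko clone than in every wild-type culture, opposite to Rhox13. Because the points are 2 groups of 3, such values mainly follow the group difference, and 88 of 12218 genes exceeded 0.95. Abcc4, a membrane transporter gene, had 87.0, 84.8 and 81.3 CPM in clones 1, 2 and 3 and 104, 101 and 104 in p42, p43 and p56. 1700019A02Rik had 1.29, 1.15 and 0.82 CPM in ko and 7.89, 6.79 and 8.73 in wild type (log2 fold change -2.83, SE 0.22), a lower fitted value than that of Rhox5. The 5 genes were picked by a pattern that follows the group difference, so no p-value is given for them.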

How the data were processed

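The authors extracted total RNA, removed ribosomal RNA, prepared strand-specific libraries and sequenced paired ends of 50 bases. They aligned reads to mm10 with STAR, which counted uniquely mapped pairs per gene, and they tested genes with DESeq2. The gene annotation is not given in the sources used here. The deposited files hold raw counts per gene in 3 columns (unstranded and each strand). The column of the larger total was taken as sense.

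Members and gene lists were chosen with earlier results of these data known. Genes were tested with edgeR 4.0.16 (R 4.3.3; quasi-likelihood, TMM, filterByExpr with minimum count 10 and total 15, group only, two-sided, Benjamini-Hochberg over 12222 genes, called at adjusted p under 0.01), and fold changes use a prior count of 0.125. SE is the size of the log2 change over the square root of F. DESeq2 1.42.0 and limma-voom (limma 3.58.1) were alternatives. Scripts were tested on simulated data. Positions came from RefSeq (22542 rows matched by symbol, 1352 by older symbol, 160 unmatched) and sequences from GENCODE vM21 transcripts. Named were all members, Rhox genes with 10 counts, Morc3, the 2 nearest tested flanking genes on each side, called genes and up to 4 of highest mean CPM per list, and the 5 genes most like the members. Other genes named (Dnmt1, Kdm6a, Hist1h1e, Dnmt3a, Dnmt3b, Klf2, Sall4, Gata4, Mcts1, Slc25a5, Rpl39, Mov10l1, Sycp1, Sycp3, Prdm1, Mael, Rhox2d, Rhox2e, Rhox8, Rhox11, Rhox12, and markers near 0) were chosen after their values were seen. A further gene list is not reported here.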

Additional observations from a re-analysis of the deposited data

How the results depend on the processing

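No paired analysis was possible because ko replicates 1, 2 and 3 and wild-type replicates 42, 43 and 56 share no number. The fitted log2 fold changes kept their direction under all alternatives run, at -1.99 to -2.28 for Rhox5, -1.88 to -2.15 for Rhox6, -1.61 to -2.02 for Rhox9 and 1.18 to 1.72 for Rhox13. Across the alternatives 2 or 3 members were called, beside 72 to 385 of all genes (1.28% of the genes tested in the main fit). The members were chosen on this comparison, so nothing is read from their calls. The flanking genes, chosen by position only, had 0 calls in every alternative. DESeq2 called 254 genes in all and 7 listed genes, the fit with no filter called 286 and 8, and an adjusted p under 0.05 called 331, 8 and, on chromosome X, 16. Leaving out 1 library gave 72 to 385 genes in all, 2 to 9 listed genes and 4 to 17 on chromosome X. The highest of each came without p56 and the cause was not tested.

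Uncalled log2 fold changes near 0 turned sign: Hist1h1d with upper-quartile scaling (-0.0095) and no filter (-0.00074), Lamb1 with upper-quartile scaling (-0.0072), and Tead4 with DESeq2 (0.0028), limma-voom (0.0034) and counts that ignore strand (0.0010). Leaving out 1 library gave ranges of -0.071 to 0.097 for Hist1h1c, -0.054 to 0.059 for Hist1h1d, -0.094 to 0.17 for Peg10, -0.061 to 0.080 for Tead4, -0.026 to 0.060 for Lama1, -0.16 to 0.13 for Lamb1, -0.12 to 0.15 for Prdm14 and -0.16 to 0.033 for Lamp2. Depth limits Rhox1, Rhox10 and Rhox13, with 3, 48 and 73 counts in all.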
